A study of Mus musculus with 4 samples.

Results

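Among the 3927 cells of the XN4 line in the normalized table, 684 cells (17.4%, exact 95% binomial interval 16.2% to 18.6%) had a read of several genes of a set led by *Cxcl12* and *Dpep1* and are called *Cxcl12*/*Dpep1* cells here. They were selected on measured values. A cell was included when at least 3 of the 7 genes *Dpep1*, *Adh1*, *Cxcl12*, *Pygm*, *Ppara*, *Kng2*, and *Slco1a4* had a read, at most 1 of the 6 genes *Abcb1b*, *Fosl1*, *Spp1*, *Nptx1*, *Ptprn*, and *Tnc* had a read, and *Mki67* and *Top2a* were not both captured. The comparison cells were the 1051 XN4 cells with 0 of the 7 genes. The whole series held 15255 cells in the normalized tables of 4 mouse neural stem cell (NSC) lines.

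The lines were derived from epiblast stem cells (EpiSCs) of strain 129/Sv, the in vitro counterpart of the postimplantation epiblast, and the study asked how the strength of the Wnt signal sets their anteroposterior character. XN4 was grown with EGF and FGF2 (each at 10 ng/ml) and with XAV939 (10 µM), a tankyrase inhibitor that lowers Wnt signaling. XN1 received XAV939 at the same added concentration from another supplier. The paper reports that this product formed crystals during culture and holds that less of it was effective. KN1 received no Wnt agent, and CN4 received 2 µM CHIR99021, a GSK3 inhibitor that raises Wnt signaling. These lines all had EGF and FGF2 as for XN4. Each line was 1 derivation measured in 1 single-cell library, so there were no replicates, no test was made, and the intervals cover counting error only. The dissociated cells of all lines were kept cold in a preservation reagent before capture.

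The counts were of sequencing reads, not of molecules, with a median of 7796 reads per XN4 cell in the normalized table. A further 4814 XN4 cells were present only in the table of all reads, and 4638 of them, with no more genes per cell than the normalized table reached, served as a second set of cells from the same library. The rule gave 833 *Cxcl12*/*Dpep1* cells among these (18.0%, 16.9% to 19.1%). The selected cells were deeper than the comparison cells, with a median of 11222 against 6096 reads, so mean levels were compared in pairs of cells whose total reads differed by at most 1.1 times, counts of captured genes were set against the numbers expected from total reads, and shares across gene numbers and lines were taken in cells thinned to 3200 reads. Between XN4 and each of the other lines 14 to 19 cell indexes were shared, and leaving out the cells with a shared index gave a share of 17.3%. Doublets were not called.

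The 7 genes that defined the cells are known from different settings. *Cxcl12* encodes a chemokine that stromal and meningeal cells release to hold and guide cells bearing its receptor Cxcr4. *Dpep1* encodes a membrane dipeptidase that cleaves cysteinyl-glycine and leukotriene D4, *Adh1* a class I alcohol dehydrogenase that oxidizes ethanol and retinol, and *Pygm* the muscle glycogen phosphorylase. *Ppara* encodes a fatty acid-sensing nuclear receptor, *Kng2* a kininogen, the precursor of kinin peptides, and *Slco1a4* an organic anion transporter. Fibroblast-like stromal cells of many organs release complement components, chemokines, and matrix proteins, and NSCs are usually recognized by *Sox2* and *Nes*.

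These NSC marker genes were captured in few XN4 cells. Among all cells thinned to 3200 reads, *Sox2* had a read in 0.384% of XN4, 54.3% of XN1, 11.9% of KN1, and 73.7% of CN4 cells. *Nes* had a read in 4.64% of XN4 cells and in 45.8% to 67.2% of the cells of the other lines. *Msi1*, an RNA-binding protein of neural progenitors, was captured in 8.92% of XN4, 18.4% of XN1, 5.86% of KN1, and 28.4% of CN4 cells. KN1 cells had a median of 833 genes at 5862 reads before thinning, against 2479 genes in XN4, 2257 in XN1, and 2824 in CN4. Thinning evened out reads and not genes per cell, and the part of this in the KN1 shares was not tested. *Sox2* had a read in 0 of 612 depth-matched *Cxcl12*/*Dpep1* cells thinned to 3200 reads, which allows a share of up to 0.49%, and in 1.31% of the matched comparison cells. *Nes* was captured in 1.47% (0.675% to 2.77%) of them and in 8.99% (6.84% to 11.5%) of the comparison cells. *Sox1*, *Sox3*, *Fabp7*, and *Hes5* were not listed in the XN4 normalized table. The 7 fibroblast markers were all listed, and at least 1 had a read in 99.8% of the selected and 99.2% of the comparison cells, with a summed level of 84.0 reads per 10000 in the selected cells and 55.3 in the comparison cells. *Col3a1* was captured in 97.7% of all thinned XN4 cells, which is nearly the whole line. Markers of blood, epithelium, neurons, astrocytes, and choroid plexus had a summed level of at most 0.115 reads per 10000 in the selected cells. Of the 7 endothelial markers 5 were listed, and 77.1% of the selected cells had a read of at least 1 of them. Nearly all of the summed level of 3.83 was *Emcn*, at 3.79 reads per 10000, captured in 49.1% of all thinned XN4 cells, whereas *Pecam1* and *Cdh5* were at 0.00779 and 0.0132. The meningeal, mural, cartilage, and bone lists had summed levels of at most 3.22. At least 1 of their markers had a read in 76.7%, 50.9%, 52.6%, and 43.6% of the selected cells. In the comparison cells these shares were 69.7%, 47.6%, 47.0%, and 26.0%. The meningeal markers *Foxc1* and *Tbx18* were captured in 34.8% and 23.0% of all thinned XN4 cells. The part of these other markers in the results was not tested. The cells are called by their leading genes and not by a tissue name.

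*Cxcl12* (chromosome 6, 117168535 to 117181367, plus strand, GRCm38) and *Dpep1* (chromosome 8, 123186242 to 123201812, plus strand) carried most of the selection. Of the 684 cells, 607 (88.7%) had *Dpep1* and 576 (84.2%) had *Cxcl12*, 510 (74.6%) had both, and 11 (1.61%) had neither. *Slco1a4* was captured in 51.9%, *Pygm* in 39.6%, *Kng2* in 33.6%, *Adh1* in 32.2%, and *Ppara* in 21.5% of the cells. Exactly 3 of the 7 genes were present in 411 cells, 4 in 206, 5 in 54, 6 in 12, and all 7 in 1 cell. The cells fell into 75 combinations, the most frequent being *Dpep1*, *Cxcl12*, and *Slco1a4* in 81 cells. Mean levels in the depth-matched cells were 6.41 reads per 10000 for *Cxcl12* and 4.57 for *Dpep1*, and between 0.615 (*Ppara*) and 1.70 (*Slco1a4*) for the other genes. These values were selected by the rule and are a description.

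The joint capture of the 7 genes is given as a description, because the rule requires it and the genes were chosen with these data known. When cells were ordered into 20 strata of total reads and the genes taken as independent within a stratum, 629 cells with at least 3 of the 7 genes were expected and 789 were observed, a ratio of 1.253. The ratio was 1.27 in the second set of cells (976 against 771). It was 2.27 for at least 4 genes (312 against 137) and 4.54 for at least 5 (81 against 17.8). Cells with 0 of the 7 genes numbered 1051 against 727 expected, whereas cells with exactly 3 were close to the expected number, 477 against 492. The plot of observed and expected cells shows the distributions meeting at 3 genes, the number present in 411 of the 684 selected cells.

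**Figure D1:**
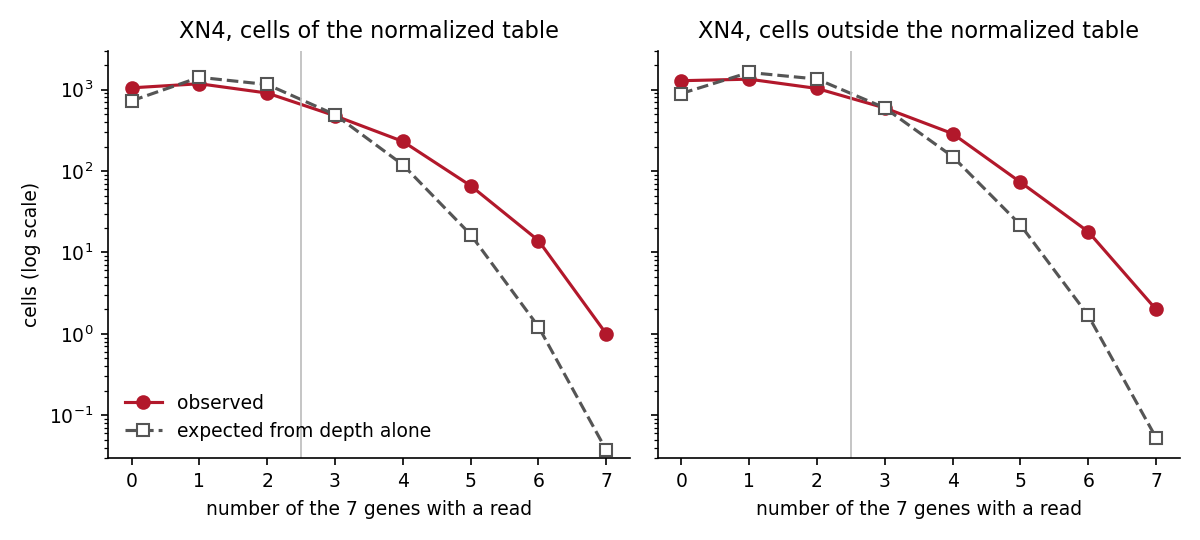
Number of XN4 cells (log scale) against the number of the 7 genes with a read, observed and expected when the genes are independent within 20 strata of total reads, for both sets of cells. The vertical line marks the threshold of the rule. Observed cells exceed the expected at 0 genes and at 4 or more, with 231 against 119 cells at 4 genes in the normalized table.

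Single genes contributed unequally to this joint capture. Over the 21 pairs of the 7 genes, which share genes and cells, the median ratio of observed to expected cells was 1.31 in the normalized table and 1.32 in the second set. *Adh1* with *Kng2* had the highest ratio, 1.82, and 2.05 in the second set. *Dpep1* with *Cxcl12*, the most frequent pair, had 953 cells and a ratio of 1.24. The lowest ratios involved *Ppara*, at 1.04 with *Kng2* in the normalized table and 1.08 with *Slco1a4* in the second set.

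In cells with at least 3 of the other 6 genes, *Kng2* was captured in 19.3%, against 2.95% in depth-matched cells with 0 of the other 6. *Adh1* was captured in 19.6% against 4.84%, *Cxcl12* in 67.0% against 26.3%, and *Dpep1* in 76.4% against 43.2%. *Ppara* was captured in 10.6% (7.75% to 14.1%) against 6.57% (4.33% to 9.47%), where the intervals overlap. In the second set, the ratios of the shares ranged from 1.80 for *Dpep1* to 7.46 for *Kng2*, with *Ppara* at 2.04. These shares are of genes of the rule in cells chosen by the other genes of the rule, and nothing is drawn from them.

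The values just outside and just inside the threshold were as follows. Among cells that passed both exclusions and were thinned to 3200 reads, *Cxcl12* was captured in 46.8% of those with exactly 2 of the 7 genes and in 61.9% of those with exactly 3, and *Dpep1* in 52.6% and 62.7%.

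The promoter of *Cxcl12* is shown because *Cxcl12* had the highest mean level of the 7 genes. It is the RefSeq window on build GRCm38.p6 from 250 bases before to 50 bases after the start, chr6:117168285-117168584 on the plus strand. Capitals mark the GC box (GGGCGG on either strand), found 5 times, with the last of these sharing a base with the site before it.
Cxcl12: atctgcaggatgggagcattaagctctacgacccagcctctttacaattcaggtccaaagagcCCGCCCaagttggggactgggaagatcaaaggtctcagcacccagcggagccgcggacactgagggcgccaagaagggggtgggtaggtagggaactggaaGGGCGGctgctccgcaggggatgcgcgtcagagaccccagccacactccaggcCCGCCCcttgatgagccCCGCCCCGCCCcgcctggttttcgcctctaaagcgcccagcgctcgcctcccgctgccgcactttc
The GC box was in 2 of the 7 promoters, *Cxcl12* and *Ppara*, against 35.9% of 27025 promoters of this length. The direct repeat bound by PPAR receptors and the AP-1 site (TGANTCA) were in 0 of the 7, against 0.0444% and 7.93% of all promoters.

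The overlap of the 7 genes with the excluded genes is also a description, since both sets of genes belong to the rule and were chosen with these data known. Of 169 cells with at least 3 of the 6 excluded genes, whatever else they captured, 7 had at least 3 of the 7 genes (4.14%, 1.68% to 8.35%), against 48.6 expected at their depth. In the second set the numbers were 5 of 148 cells against 42.5. *Slco1a4* was captured in 4 of the 169 cells against 40.1 expected, and *Cxcl12* in 25 against 77.9. Dividing cells, with both *Mki67* and *Top2a*, had at least 3 of the 7 genes in 78 of 690 cells (11.3%, 9.04% to 13.9%) against 177 expected at their depth. In the second set, 115 of 828 dividing cells had at least 3 of the genes against 225 expected. In the normalized table the rule removed the 78 dividing cells and 31 cells that had 2 or more of the 6 excluded genes. Some cells are in both counts.

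Neighbors were also counted in the rest of the transcriptome. With all 15 genes of the rule left out, 42.2% of the 30 nearest neighbors of a *Cxcl12*/*Dpep1* cell, taken in 30 principal components of 2000 variable genes, were *Cxcl12*/*Dpep1* cells, against 20.2% expected from the depth of the neighbors, a ratio of 2.09. The ratio was 2.00 in the second set. The rule kept dividing cells and cells of the *Spp1* program out of the selection, and cells with 0 of the 7 genes held to the same exclusions also had neighbors of their own kind beyond the expected, 25.9% against 20.6%, a ratio of 1.255, and 1.285 in the second set. Dividing cells had 78.1% neighbors of their own kind against 25.7% expected, and the cells of the *Spp1* and *Fosl1* program 63.5% against 6.68%. The groups differ in size, which bounds the ratio, so the ratios are not ranked. The other neighbors of a *Cxcl12*/*Dpep1* cell lay outside the selection.

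The other genes were compared between 647 pairs of *Cxcl12*/*Dpep1* and comparison cells of like depth, and again in 739 pairs of the second set. A gene was called when the ratio of its mean levels, in reads per 10000 reads of the cell, was past 1.5 in the same direction in both sets. Of 10397 genes with a read in at least 5% of either group, 442 (4.25%) were called higher and 915 (8.8%) lower in the *Cxcl12*/*Dpep1* cells. The log2 ratios of the sets correlated across genes with r = 0.84, and with r = 0.51 in the restricted comparison described next, where the points share a library and a rule. The median gene differed by -0.04 on the log2 scale. Since the comparison cells, unlike the selected cells, could be dividing or hold the *Spp1* program, a restricted comparison with the 702 cells that had 0 of the 7 genes and passed both exclusions was made beside it. It used 421 and 497 pairs and gave 237 of 9685 genes higher (2.45%) and 415 lower (4.28%). Of the genes called in the first comparison, 204 higher genes (46.2%) and 333 lower genes (36.4%) were also called in the restricted comparison, which shares its selected cells and part of its comparison cells with the first. The matched selected cells had a median of 10751 reads, 3057 genes, 5.88% ribosomal and 21.7% mitochondrial reads, against 9874 reads, 2895 genes, 5.21%, and 22.9% in the comparison cells. In the restricted comparison the matched selected cells were shallower, with a median of 7215 reads, 2316 genes, and 27.7% mitochondrial reads. Its comparison cells had 6775 reads, 2224 genes, and 28.0%. The 2 comparisons thus differ in depth, in mitochondrial share, and in the number of pairs as well as in the cells left out. The part of these differences in the results was not tested.

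**Figure D2:**
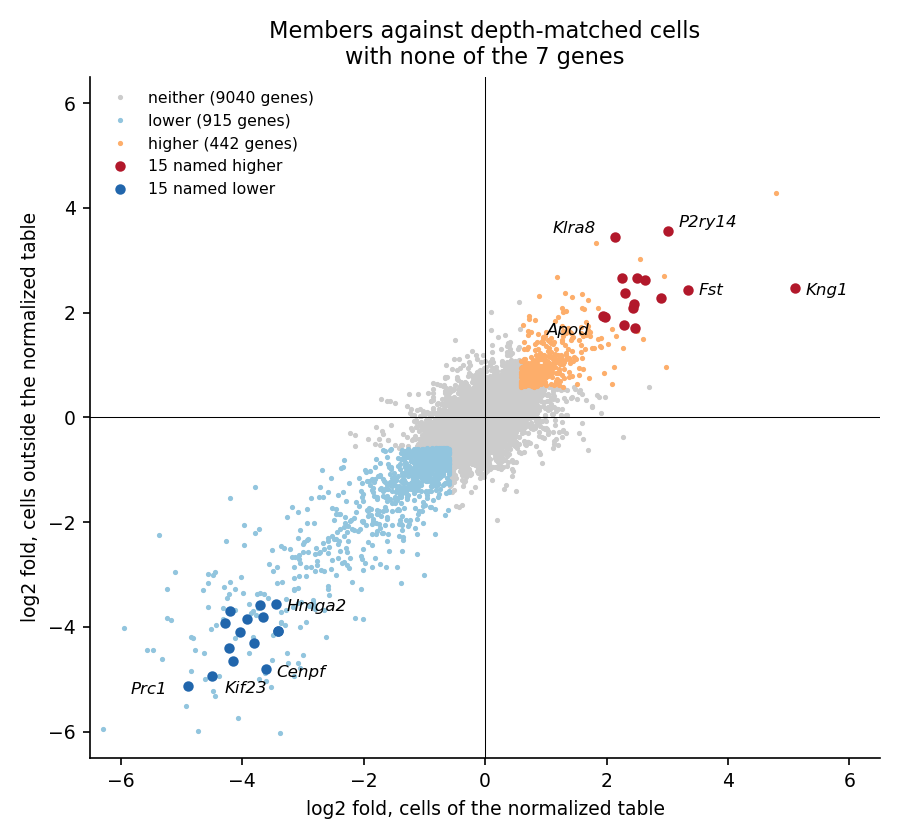
Log2 ratio of mean level in *Cxcl12*/*Dpep1* cells to that in depth-matched cells with 0 of the 7 genes, in the cells of the normalized table (x axis) and in the second set (y axis), 1 point per gene of the 10397 compared. Called genes are colored, and the 15 named higher and 15 named lower genes are drawn larger. *Kng1* and *P2ry14* lie farthest to the upper right among the named genes, and genes of mitosis lie at the lower left.

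Among the 15 named higher genes, *P2ry14*, a receptor for UDP-glucose, had a level of 0.627 reads per 10000 in the *Cxcl12*/*Dpep1* cells and 0.0775 in the comparison cells, 8.08 times higher, and 11.7 times higher in the second set. Its annotation overlaps *Med12l* on the other strand, and whether the counting used strand is not given in the sources used here. *Il1rn*, the interleukin 1 receptor antagonist, was at 2.24 against 0.36, 6.23 times higher and 6.18 times in the second set. After thinning to 3200 reads, *Il1rn* was captured in 27.8% (24.3% to 31.5%) of the *Cxcl12*/*Dpep1* cells and in 7.52% (5.56% to 9.90%) of the comparison cells. *Fst*, follistatin, which binds activins, was 10.2 and 5.37 times higher. *Alpl*, tissue-nonspecific alkaline phosphatase, was at 1.32 against 0.242 and was captured in 21.4% against 5.88% of the thinned cells. Being past 1.5-fold in the restricted comparison was a condition of naming these 4 genes. Their log2 ratios there were 2.41, 2.19, 2.81, and 2.17.

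*Apod*, apolipoprotein D, a lipid-binding secreted protein, had by far the highest level of the 15 named higher genes, 54.8 against 14.2 reads per 10000, and 54.7 against 14.4 in the second set. It was captured in 95.6% (93.6% to 97.1%) of the thinned *Cxcl12*/*Dpep1* cells and in 61.3% (57.3% to 65.2%) of the comparison cells, so that nearly all selected cells had a read of it. *Clec3b*, tetranectin, was 5.56 and 3.26 times higher, and was captured in 24.7% against 5.07% of the thinned cells. *Scn7a*, a sodium channel-family protein, was 7.44 and 4.87 times higher, *Sult5a1*, a sulfotransferase, 5.66 and 6.34 times, *Ms4a4d*, a membrane protein, 4.92 and 5.18 times, and *Slco1c1*, a thyroid hormone transporter, 4.77 and 6.36 times. *Rasgrp2* and *Klra8* completed the named genes with levels of 0.142 and 0.104 reads per 10000, at which few cells had a read, 3.10% and 2.78% of the thinned *Cxcl12*/*Dpep1* cells. *Fst* and *Kng1* entered the first comparison through their share in the selected cells alone, which favors higher genes. The same may hold for *Scn7a*, *Slco1c1*, *Rasgrp2*, and *Klra8*, at 0.0580, 0.0417, 0.0262, and 0.0237 reads per 10000 in the comparison cells. *Sult5a1* and the rule gene *Dpep1* both overlap the annotated gene *Gm20388*, and *Fst* overlaps an antisense gene, so that reads of these genes are uncertain. *Rasgrp2* starts at 6399340 on the plus strand of chromosome 19, close behind the rule gene *Pygm*, which ends at 6398459 on that strand. Whether reads of *Pygm* transcripts were counted to *Rasgrp2* was not tested. *Kng1* was 34.3 and 5.51 times higher, but it is a close copy of the rule gene *Kng2*, and reads may have been divided between them, and the comparison cells held 9 reads of it in all (exact interval 4.12 to 17.1). With *Kng2* left out of the rule, an alternative added after the data were seen, *Kng1* had a log2 ratio of 3.95, and 2.11 in the second set.

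Of 22 complement and acute-phase genes, 14 entered the comparison, 12 were higher, and 0 were lower, with a median log2 ratio of 1.13 against -0.04 over all genes, of which 4.25% were higher. The restricted comparison gave 10 of 14, against 2.45% of all genes. *Kng1*, the near copy of a rule gene, is 1 of the higher genes in either count, and it was the 1 gene of the list that entered through its share in the selected cells alone. *Serping1*, the C1 inhibitor, was at 1.64 against 0.336 reads per 10000, 4.87 and 3.40 times higher, and was captured in 26.5% (23.0% to 30.2%) against 6.86% (4.99% to 9.16%) of the thinned cells. *Hp*, haptoglobin, which binds free hemoglobin, was 3.91 and 3.76 times higher. The C1 proteases *C1s1* and *C1ra* were 2.51 and 2.32 times higher, and *C1s1* was captured in 48.0% against 23.7% of the thinned cells. *C3*, the central complement component, was at 1.03 against 0.472. *Itih2*, *Cp* (ceruloplasmin), *Lcn2* (lipocalin 2), *Saa3*, *Itih5*, and *Kng1* were also among the higher genes, of which *Saa3* and *Itih5* were not called in the restricted comparison. *A2m* and *Serpina3g* were the genes of the list compared and not called, *A2m* at 0.190 against 0.189.

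The higher level of this list was spread over cells. Leaving out *Kng1*, the thinned *Cxcl12*/*Dpep1* cells captured between 0 and 9 of its 17 listed genes, with a median of 4, and 75% captured at least 3. The cells with 0 of the 7 genes captured a median of 2, and 39.5% captured at least 3. In the second set the shares with at least 3 were 75.9% and 39.4%.

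Of the 12 higher complement and acute-phase genes, 8 had a RefSeq promoter window, and 6 of the 8 held the C/EBP site TTNNGCAA on either strand, against 10.8% of all 27025 promoters. The site was in 1 of 5 windows of the other genes of the list and in 1 of the 7 promoters of the rule genes (*Kng2*). The stretches around the site are printed because C/EBP factors are known regulators of acute-phase genes. *Cebpa*, which encodes such a factor, was called higher in both comparisons, and *Cebpd* in the first and not in the restricted comparison. Coordinates are GRCm38.p6, each stretch is written 5′ to 3′ on the gene's strand, and capitals mark the site.
C3 (chr17:57228147-57228208, minus strand): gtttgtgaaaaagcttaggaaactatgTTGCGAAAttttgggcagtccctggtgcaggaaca
Itih2 (chr2:10130682-10130743, minus strand): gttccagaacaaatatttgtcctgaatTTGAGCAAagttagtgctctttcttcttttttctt
Saa3 (chr7:46715741-46715802, minus strand): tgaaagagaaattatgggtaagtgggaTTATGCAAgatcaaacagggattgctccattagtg
Lcn2 (chr2:32387921-32387982, minus strand): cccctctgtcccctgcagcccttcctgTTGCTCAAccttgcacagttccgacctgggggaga
C1ra (chr6:124512610-124512670, plus strand): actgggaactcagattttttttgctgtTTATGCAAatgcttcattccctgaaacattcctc
C1s1 (chr6:124542567-124542609, minus strand): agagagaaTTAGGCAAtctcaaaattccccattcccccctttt
In *C3*, the site began 45 bases before the start and in *Itih2* 33 bases before it. A match of letters is a description of the window, and no binding was measured. The part of *Cebpa* or *Cebpd* in the levels of these genes was not tested.

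Of 8 genes known from adipose and marrow stroma, 6 entered the comparison and 4 were higher, against 4.25% of all genes, with a median log2 ratio of 1.24, and *Ebf1* and *Ebf2* were not called. *Lepr* and *Pparg* entered through their share in the selected cells alone, and with a filter on the mean share of both groups, chosen after seeing the data, 3 of 5 were higher, against 4.01% of all genes. The restricted comparison gave 3 of 5 higher, against 2.45% of all genes. *Lpl*, lipoprotein lipase, was at 16.2 against 5.44 reads per 10000 and was captured in 86.8% (83.8% to 89.3%) against 53.9% (49.9% to 57.9%) of the thinned cells. *Cebpa*, a transcription factor of adipocytes and liver, was 2.23 and 2.47 times higher, and *Pparg* 2.5 and 5.16 times. *Lepr*, the leptin receptor of marrow stromal cells, was 27.8 times higher on 179 against 6 reads, but it was captured in 2.45% of the thinned *Cxcl12*/*Dpep1* cells, and too few cells had it for the restricted comparison. *Adipoq* and *Fabp4*, which define adipocytes, were not listed in the XN4 table. *Pdgfra*, a receptor of mesenchymal progenitors, was 2.17 and 2.06 times higher, whereas *Pdgfrb* was at 0.832 against 0.765. *Col3a1* was 1.60 times higher but 0.25 on the log2 scale in the restricted comparison, below the threshold. *Col1a1* was at 2.37 against 2.69 and was called lower in the restricted comparison, as was *Lum*.

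The pathways of *Ppara*, *Pygm*, *Adh1*, and *Cxcl12* had between 0 and 2 genes called in each direction, against 4.25% of all genes higher and 8.8% lower. Of 25 PPAR-alpha targets and genes of fatty acid oxidation, 16 entered the comparison, 2 were higher, among them *Plin2* at 1.54 times, 0 were lower, and the restricted comparison called 0 of 16 in either direction. The median log2 ratio was 0.21. *Cpt1a*, the gate of mitochondrial fatty acid oxidation, was at 0.526 against 0.496. Of 13 glycogen genes compared besides *Pygm*, 0 were higher and *Pgm1* was lower, also in the restricted comparison. Of 14 genes of retinoid and alcohol metabolism compared besides *Adh1*, 2 were higher, among them *Rbp4* at 2.52 times, and *Crabp1* and *Aldh1a3* were lower. *Rbp4* and *Crabp1* were also called in the restricted comparison, for which *Aldh1a3* had too few cells with a read. *Rbp4* entered both comparisons through the selected cells alone, and *Crabp1* through the comparison cells alone, as did *Aldh1a3* in the first. With the filter on the mean share of both groups, *Rbp4* and *Crabp1* were left out of the restricted comparison, which then called 0 of 10 in either direction. Of 9 chemokine genes compared besides *Cxcl12*, the scavenging receptor *Ackr4* was higher and *Cxcl10* lower, and neither was called in the restricted comparison. *Cxcl10* entered through the comparison cells alone. With the filter on the mean share of both groups it was left out, and 1 of 8 was higher and 0 lower. *Cxcl1* was at 2.25 against 2.26, and the Cxcl12 receptor *Ackr3* was not listed in the XN4 table.

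Of the 18 compared genes of glutathione and small-peptide metabolism, the process in which *Dpep1* acts, 3 were higher and 4 lower, against 4.25% and 8.8% of all genes. *Ggt5*, a gamma-glutamyl transferase that acts on leukotriene C4 in the step before the dipeptidase, was at 1.39 against 0.556 and was captured in 27% (23.5% to 30.7%) against 10.1% (7.86% to 12.8%) of the thinned cells. *Mgst1* and *Gstm2* were also higher, 2.10 and 1.86 times. *Gclc*, the rate-limiting enzyme of glutathione synthesis, was lower with a log2 ratio of -0.98, together with *Gsr*, *Gsto1*, and *Gss*, of which *Gclc* was also lower in the restricted comparison. Among 12 transporters compared besides *Slco1a4*, *Slc22a5* was higher, and *Abcc1* and *Slc22a23* were lower, of which *Abcc1* was also called in the restricted comparison.

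**Figure D3:**
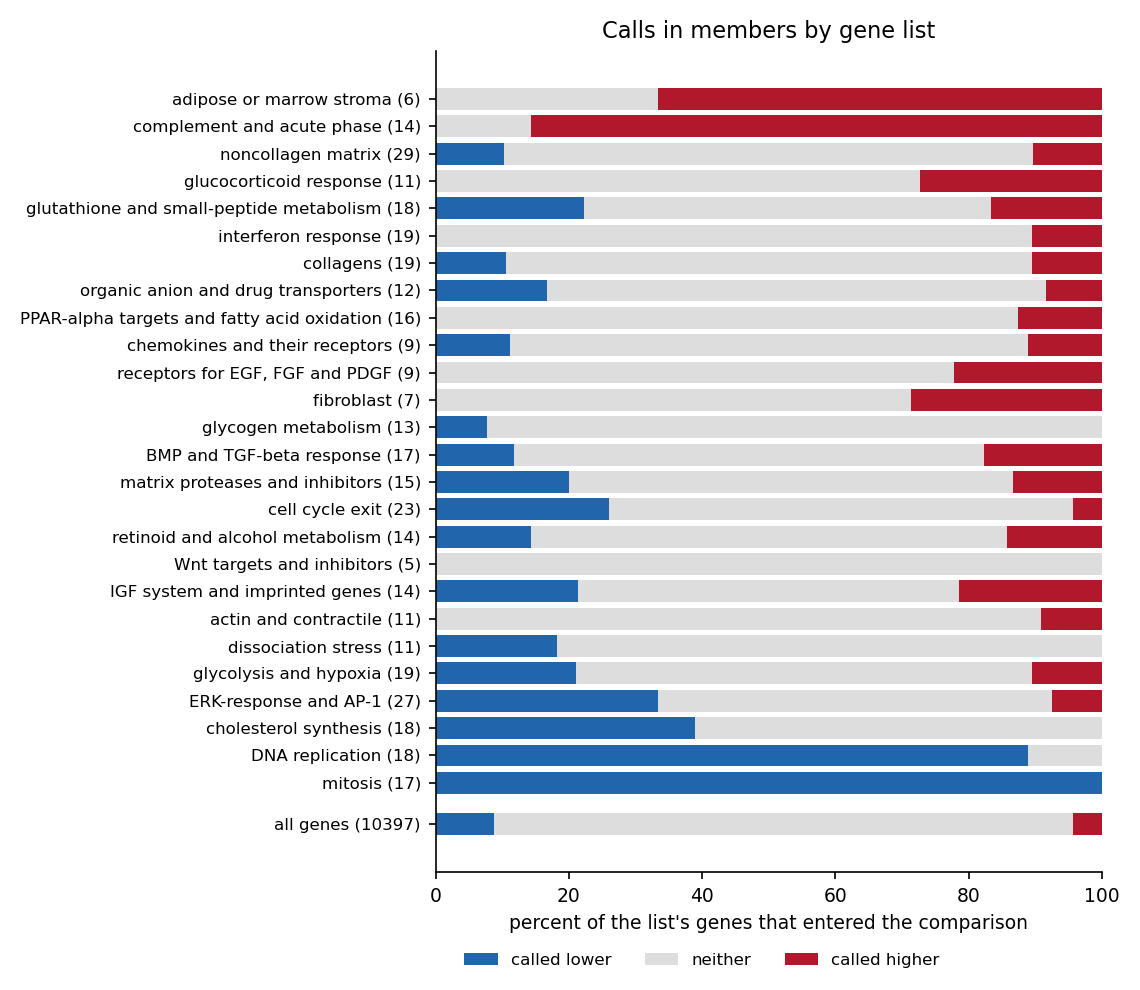
Share of the genes of each list that were called lower, neither, or higher in *Cxcl12*/*Dpep1* cells against depth-matched cells with 0 of the 7 genes, for lists with at least 5 genes compared (number in parentheses), ordered by median log2 ratio. The lowest bar gives all 10397 genes, of which 8.8% were lower and 4.25% higher.

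Genes of division made up the 15 named lower genes except *Hmga2*. All 17 genes of mitosis were lower, with a median log2 ratio of -3.74, and 16 of 18 genes of DNA replication were lower, against 8.8% of all genes. The rule set part of this, since it removed dividing cells from the selection and not from the comparison. In addition, 12 genes of mitosis and 7 of DNA replication entered through their share in the comparison cells alone, which favors lower genes. With the filter on the mean share of both groups, 17 of 17 and 14 of 16 were lower, against 8.19% of all genes. *Birc5*, survivin, was at 0.146 against 2.40 reads per 10000, and *Prc1*, which bundles the central spindle, at 0.0444 against 1.31. In the restricted comparison, where cells with both *Mki67* and *Top2a* were left out on both sides, 8 of 9 genes of mitosis that could be compared and 7 of 14 genes of DNA replication were lower, against 4.28% of all genes. Of these, 5 genes of mitosis and 4 of DNA replication entered through their share in the comparison cells alone, so that the counts favor lower genes. With the filter on the mean share of both groups, 6 of 7 and 6 of 12 were lower, against 3.76% of all genes. *Birc5* there had a log2 ratio of -2.09 and -2.48 in the second set. Its share in the thinned cells was 3.39% in *Cxcl12*/*Dpep1* cells and 12.1% in cells with 0 of the 7 genes that passed both exclusions. *Kif23*, *Nuf2*, *Hmmr*, *Cdca3*, *Cenpe*, *Ccna2*, *Ube2c*, *Cdca8*, *Cenpf*, *Gtse1*, *Cdc20*, and *Tpx2*, all of the mitotic apparatus or its regulation, had log2 ratios from -4.50 (*Kif23*) to -3.40 (*Tpx2*). In the restricted comparison their log2 ratios were smaller, from -2.11 (*Cdca3*) to -0.83 (*Tpx2*).

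Of 23 genes of cell cycle exit, *Txnip* was higher and 6 were lower, against 4.25% and 8.8% of all genes. The restricted comparison called 0 higher and 4 lower of 21, against 2.45% and 4.28% of all genes, and *Txnip* and *Cdkn2a* were not called there. *Cdkn1a*, which encodes p21, was at 0.747 against 2.72 and remained lower in the restricted comparison with a log2 ratio of -1.51. *Cdkn2a* was captured in 9.31% against 20.4% of the thinned cells. *Ccnd1*, cyclin D1, was at 0.429 against 3.76, and its log2 ratio was -2.26 in the restricted comparison. *Hmga2*, a chromatin protein of growing embryonic cells, was at 0.408 against 4.44, and its log2 ratio was -1.63 in the restricted comparison.

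Of 27 compared ERK-response and AP-1 genes, 9 were lower and 2 higher, against 8.8% and 4.25% of all genes, and the restricted comparison gave 8 lower and 3 higher, against 4.28% and 2.45%. *Etv4*, *Etv5*, and *Dusp5*, targets of the FGF and ERK pathway, were lower, *Dusp5* with a log2 ratio of -3.08 and -1.80 in the second set, and *Jun* was at 0.309 against 0.946. *Dusp5* entered both comparisons through the comparison cells alone. The filter on the mean share of both groups left it out of the restricted comparison. That comparison then gave 7 lower and 3 higher of 24, against 3.76% and 2.28% of all genes. *Fos* and *Fosb* were higher, *Fos* at 2.12 against 0.726, captured in 31.7% (28.0% to 35.5%) against 14.7% (12.0% to 17.8%) of the thinned cells. *Egr1*, an immediate early gene like *Fos*, was at 8.54 against 5.89, below the threshold. The 11 compared genes of dissociation stress had 0 higher and 2 lower, against the same shares of all genes.

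All called genes of cholesterol synthesis were lower. Of 18, 7 were lower and 0 higher, with a median log2 ratio of -0.57, where 8.8% of all genes were lower. In the restricted comparison 12 were lower with a median of -0.61, where 4.28% of all genes were lower. *Fdps* entered both comparisons through the comparison cells alone. With the filter on the mean share of both groups, 7 of 18 were lower in the first comparison, against 8.19% of all genes. The restricted comparison then gave 11 of 17 lower, against 3.76%. Without depth matching 3 of the 18 were lower. *Idi1*, an isomerase of the pathway, was at 0.832 against 1.42 and was captured in 15.5% (12.7% to 18.6%) against 26.5% (23.0% to 30.2%) of the thinned cells. *Sqle* was at 2.54 against 2.92 and was not called.

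The remaining lists are given with the genes called in the first comparison, to be read against 4.25% of all genes higher and 8.8% lower. The restricted comparison called 2.45% of all genes higher and 4.28% lower. Of 14 IGF-system and imprinted genes, 3 were higher, among them *Igfbp4* at 35.0 against 16.2, and 3 were lower, among them the imprinted RNA *H19* at 1.71 against 4.64, and both of these were also called in the restricted comparison. Of 11 glucocorticoid-response genes compared, *Zbtb16* and *Errfi1* were higher in both comparisons and *Cebpd* in the first alone. Of 19 interferon-response genes, *Ifit3* was higher in both comparisons and *Gbp3* in the first alone. Of 17 BMP and TGF-beta genes, *Fst* and *Bmp6* were higher in both comparisons and *Cyr61* in the first alone, and 2 were lower in the first alone, with *Bmp6* at 0.542 against 0.112. *Fst* and *Bmp6* entered both comparisons through the selected cells alone. With the filter on the mean share of both groups, 3 of 16 were higher, against 4.01% of all genes. The restricted comparison then gave 2 of 15 higher, against 2.28%. Of 19 genes of glycolysis and hypoxia, 2 were higher and 4 lower, and in the restricted comparison *Pdk1*, a kinase that restrains pyruvate oxidation, was higher and 0 of 18 were lower.

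Matrix genes, receptors, and markers of other cell types had the following calls. Over all genes, 4.25% were higher and 8.8% lower, and 2.45% and 4.28% in the restricted comparison. Of the 7 fibroblast markers, *Pdgfra* and *Col3a1* were higher and 5 were not called, and the restricted comparison gave 1 higher and 2 lower. Of 19 collagens, *Col14a1* and *Col3a1* were higher in the first comparison alone, and *Col18a1* and *Col27a1* were lower in both. Of 29 other matrix genes, *Fbln5* was higher and *Fn1* and *Emilin1* were lower in both comparisons, whereas *Ogn* and *Matn2* were higher and *Vcan* lower in the first alone. Of 15 matrix proteases and inhibitors 2 were higher and 3 lower, of which *Timp1* was lower in both comparisons. *Timp1* and the collagen *Col27a1* entered the restricted comparison through the comparison cells alone. The filter on the mean share of both groups left *Timp1* out there. Of 11 actin genes 1 was higher, in the first comparison alone. Of 9 growth factor receptors, *Pdgfra* was higher in both comparisons and *Ntrk2* in the first alone. Of 5 Wnt targets and inhibitors compared, 0 were called in either direction, and 17 of 23 were listed. Of the marker lists of other cell types, *Alpl* was the gene called of the bone list (2 compared) and *Pdgfra* of the oligodendrocyte lineage (1 compared), both in both comparisons, and 0 genes were called of the meningeal (2 compared), mural (2), cartilage (1), and endothelial (1) lists. Of 3 nuclear RNAs compared 0 were called.

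Values are also given by the number of the 7 genes captured. The genes named here were chosen for their difference between cells with 0 and cells with 3 or more of the 7 genes, so that their direction over the whole range was fixed by that choice and is a description. Among thinned cells that passed both exclusions, the share with *Lpl* was 58.4%, 72.6%, 80.1%, 84.1%, and 90.0% in cells with 0, 1, 2, 3, and 4 of the genes. *P2ry14* went in the same order from 2.91% to 5.23%, 8.65%, 11.0%, and 18.5%. Each step was upward for 10 of the 15 named higher genes in the normalized table and for 11 in the second set. Each step was downward for 3 of the 15 named lower genes in either set, *Birc5* among them in the normalized table, with shares of 12.1%, 6.61%, 5.61%, 3.92%, and 2.5%. Deeper cells show more of the 7 genes, and the median depth before thinning rose from 6093 to 13562 reads over these groups, while the number of genes per thinned cell rose from 1514 to 1733. The part of depth in these values was not tested.

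The summed level of the complement and acute-phase genes without *Kng1* went from 23.2 reads per 10000 at 0 genes to 29.2, 31.0, 40.4, and 45.6 at 1, 2, 3, and 4. In the second set it was 23.4, 28.4, 34.9, 41.9, and 43.4. Cholesterol synthesis genes went from 28.4 at 0 genes to 18.5 at 4 and mitosis genes from 5.83 to 1.97. The direction did not hold throughout in cells with 5 or more of the genes, of which there were 66 and 79. There the complement sum was 43.5, and 51.9 in the second set, the cholesterol sum 21.3 and 15.3, and the mitosis sum 1.42 and 2.61. The sum of PPAR-alpha targets was 11.6 at 0 and 14 at 4, and that of ERK-response genes 38.6 and 39.2. For the complement, cholesterol, and mitosis lists the values of cells with 1 or 2 of the 7 genes lay between those at 0 and 4.

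**Figure D4:**
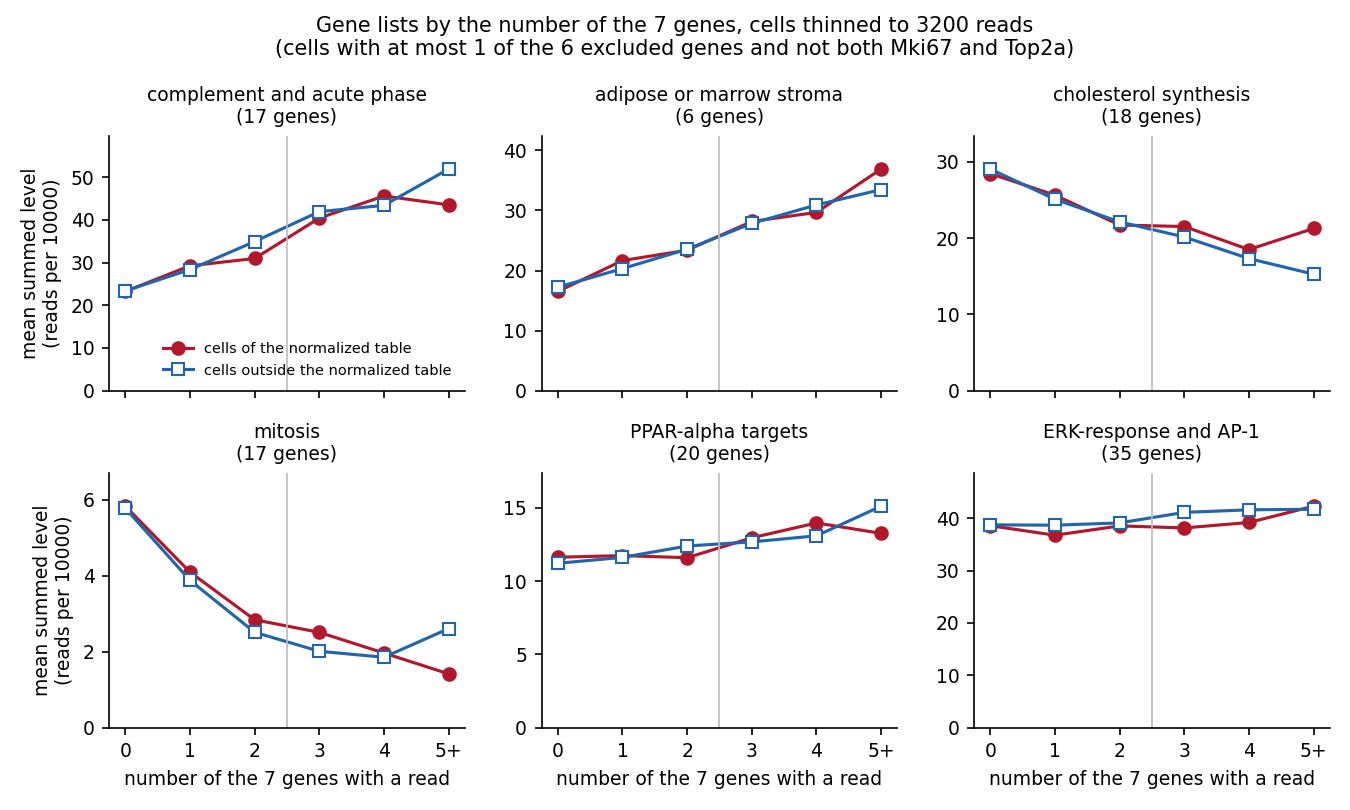
Mean summed level (reads per 10000) of 6 gene lists against the number of the 7 genes captured, in XN4 cells that passed both exclusions, thinned to 3200 reads, for the cells of the normalized table and of the second set. The vertical line marks the threshold of the rule. Between 0 and 4 genes in the normalized table complement and stromal lists go up, and cholesterol and mitosis lists go down, from 28.4 to 18.5 and from 5.83 to 1.97, whereas at 5 or more the cholesterol sum is 21.3.

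A further contrast within the line was with the 113 XN4 cells of the *Spp1* and *Fosl1* program. These had at least 3 of the 6 excluded genes, at most 1 of the 7, and not both *Mki67* and *Top2a*. In 109 and 92 depth-matched pairs, 1279 of 11248 genes were higher in the *Cxcl12*/*Dpep1* cells (11.4%) and 1612 lower (14.3%). The rules of the groups oppose each other, so the direction of their own genes is fixed. The matched cells had 7.38% against 5.79% ribosomal reads. Matrix genes were among the higher genes, with 14 of 20 collagens and 18 of 32 other matrix genes, while 2 collagens and 4 other matrix genes were lower, *Col3a1* at 8.21 and 6.20 times and *Ogn* at 17.1 and 12.8 times. All 6 compared genes of adipose and marrow stroma were higher. Among them are *Lepr* and *Pparg*, which entered the first comparison through the selected cells alone. The filter on the mean share of both groups was not applied to this contrast. *Apod* was 35.4 times higher, and it was captured in 16.1% of the thinned *Spp1* and *Fosl1* cells against 95.5% of the *Cxcl12*/*Dpep1* cells.

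Of the ERK-response genes, 20 of 32 were lower in the *Cxcl12*/*Dpep1* cells than in the *Spp1* and *Fosl1* cells, against 14.3% of all genes, and *Fos*, *Fosb*, *Spry1*, and *Spry2* were higher. *Hmga2* was captured in 9.55% of the thinned *Cxcl12*/*Dpep1* cells and in 83.9% of the *Spp1* and *Fosl1* cells, *Ccnd1* in 9.55% and 77.7%, and *Cdkn1a* in 14.8% and 78.6%. *Nes* was captured in 1.39% and 18.8%. *Emcn*, the endothelial marker with a read in many XN4 cells, was captured in 56.1% and 6.25%. Complement genes did not all follow. *C3* was captured in 16.9% of the *Cxcl12*/*Dpep1* and in 22.3% of the *Spp1* and *Fosl1* cells, with a log2 ratio of -0.45, while *Serping1* was higher, at a log2 ratio of 3.33. Of the 16 compared genes of the list 9 were higher and *Serpina3n* and *Serpina3g* lower. Mitosis genes, with 1 of 11 higher and 1 lower, and cholesterol genes, with 0 of 18 called, were not separated here.

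The rule could not be applied in full to the other lines. The normalized tables leave out rare genes, so that 3 of the 7 genes were listed in XN1 and KN1 and 4 in CN4, where *Cxcl12* was captured in 0.957% of cells. A cell of XN1 or KN1 needed all of its listed genes to be selected, and no limit on a share follows from the 0 of 3905 XN1 cells, 0 of 3975 KN1 cells, and 0 of 3448 CN4 cells that met the rule. In cells thinned to 3200 reads, where 8.57% of XN4 cells still met the rule, *Pygm* was captured in 7.36% of XN4, 3.96% of XN1, 0.913% of KN1, and 0.792% of CN4 cells. *Apod* was captured in 82.7% of XN4 cells and in 0.118% to 0.285% of the other lines. Genes of the complement list were not all more frequent in XN4. *Cp* was captured in 77.2% of XN4 and 83.3% of XN1 cells, *A2m* in 3.46% and 29.3%, *Serpina3n* in 0.177% and 8.31%, and *C4b* in 0.916% and 7.64%. The KN1 shares carry the limit of fewer genes per cell given above. With 1 library per line, line and library cannot be told apart.

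**Figure D5:**
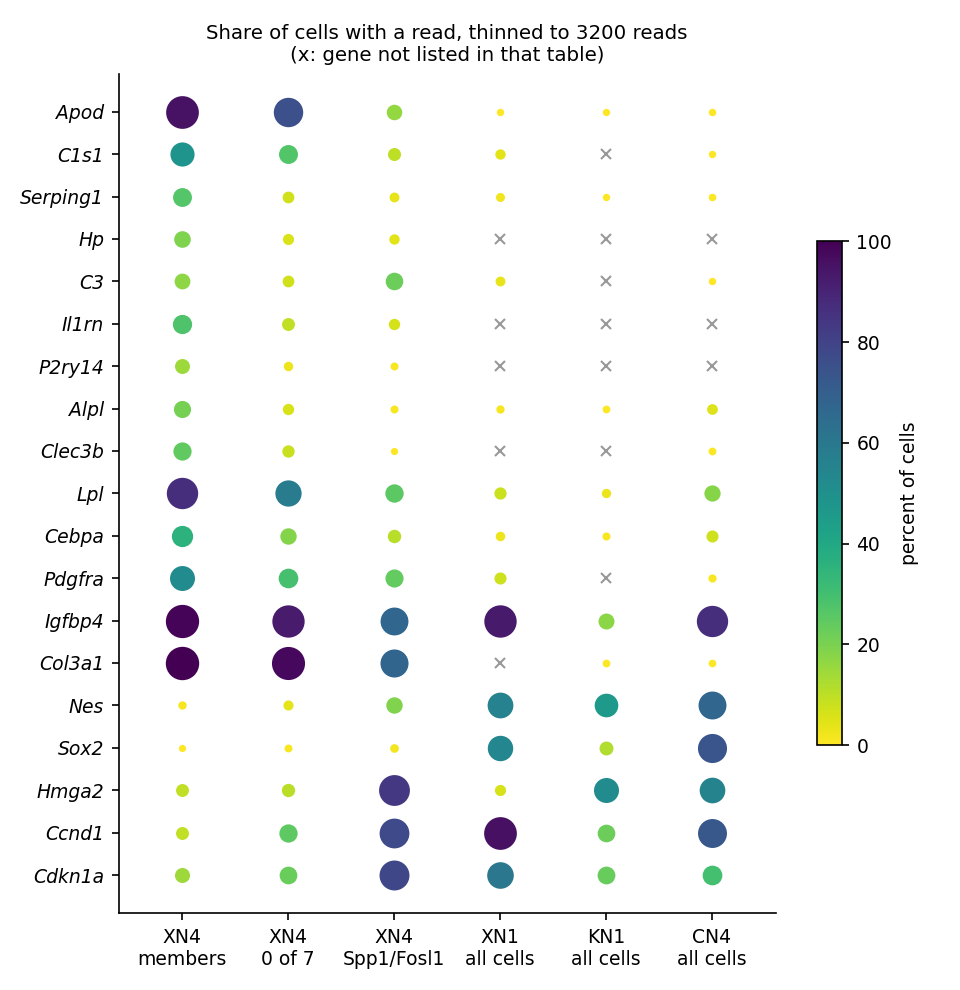
Percent of cells with a read of each gene (area and color), thinned to 3200 reads, in the *Cxcl12*/*Dpep1* cells (members), the XN4 cells with 0 of the 7 genes that passed both exclusions, the XN4 *Spp1* and *Fosl1* cells, and all cells of the other lines. *Sox2* and *Nes* are frequent in XN1 and CN4 (54.3% and 73.7% for *Sox2*) and rare in the *Cxcl12*/*Dpep1* cells, and the 4 complement and acute-phase genes drawn are rare or not listed in the other lines.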

How the data were processed

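Single-cell RNA libraries of 4 NSC lines were prepared on the BD Rhapsody system, 1 library per line. For XN4, the authors deposited raw counts of reads per gene and cell from the BD Rhapsody WTA Analysis Pipeline 1.12.1 (GRCm38, GENCODE annotation, reads in introns counted) for 8741 cells, and, for a random subset of cells of each line, natural log values of 1 plus reads per 10000 reads of the cell, made with Seurat 4.3.0 without ribosomal protein and mitochondrial genes. The natural log values were turned back into whole reads, and in XN4 0 of the values differed from the counts over 3927 cells and 15825 genes. Pipeline settings of KN1 are not given in the sources used here.

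Levels are means over cells of reads per 10000 reads. Cells were paired within 1.1 times in total reads. A gene needed a read in 5% of the cells of either group and was called past 1.5-fold in both sets of cells, and a group with under 3 reads was set to 3. Cells were thinned to 3200 reads for shares, leaving out shallower cells. Intervals are exact at 95%. The limit for a share of 0 is 3 cells of the total. Reads are not molecules, so intervals cover counting error only.

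The 15 named higher and 15 named lower genes were those called in both comparisons with the largest smaller log2 ratio of the sets, and examples of the gene lists were taken from their called members. The members and the gene lists were chosen with earlier results of these data known. The scripts were tested on simulated data. Python 3.11.15, numpy 2.4.6, scipy 1.17.1, and pandas 2.3.3 were used. Alternatives were other depth controls, filters, pseudocounts, folds, and rules. Some genes of the lists are not reported here.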

Additional observations from a re-analysis of the deposited data

How the results depend on the processing

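The share of XN4 cells selected was 17.4%. It was 35.7% with at least 2 of the 7 genes, 6.95% with at least 4, and 9.52% when a capture needed 2 reads. The ratio of observed to expected cells with at least 3 genes was 1.253, 1.35 without strata, and 1.85 after thinning to 3200 reads. The genes called higher and lower, 442 and 915, became 237 and 415 against the cells held to both exclusions, 879 and 1695 without a filter, 275 and 582 with a pseudocount of 0.1, 1136 and 1803 at a lower fold threshold, and 130 and 463 at 2-fold. With at least 2 of the 7 genes 234 were higher. Without depth matching 333 and 736 were called, and 0 PPAR-alpha targets were higher. Leaving out cells with an index shared with another line (456 and 923), leaving *Kng2* out of the rule (491 and 973), or filtering on the mean share of both groups (406 and 829), all chosen after seeing the data, kept the counts within 1.5 times, and that filter gave 214 and 352 against the cells held to both exclusions. Cholesterol genes lower, 7 of 18, ranged from 1 at 2-fold to 15 at a lower fold threshold, with 3 without depth matching. The 30 named genes, chosen for large ratios, stayed past 1.5-fold in the same direction under each of 12 alternatives of the fold. Against the cells held to both exclusions this was fixed, because being called there was a condition of naming. The size of the ratio moved beyond its counting interval for 27 of the 30 there and for 29 with a pseudocount of 0.1. No paired analysis was possible because each line had 1 library. Depth limits the genes captured in few cells, such as *Lepr*, *Klra8*, and *Rasgrp2*.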
